A study of Rattus norvegicus with 53 samples.

Results

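The eIF4F complex is the set of proteins that binds the 5′ cap of a messenger RNA and brings the small ribosomal subunit to it. Its transcripts, and those of the proteins that switch it on or off, were followed in L6 myotubes, which form when cells of the L6 rat skeletal muscle line fuse in culture. A probe set of the array was assigned to a gene when the platform annotation gave it that 1 symbol, and each gene was read at the probe set with the highest mean over all arrays. The 10 genes were Eif4e, Eif4ebp1, Eif4ebp2, Eif4a1, Eif4a2, Eif4g1, Eif4g2, Pdcd4, Mknk2 and Rps6kb1, out of 11631 genes that passed a filter on low levels. They carried 23 probe sets, all of which passed that filter, out of 22143 that did. The insulin-treated cultures received serum-free medium with 20 nM insulin at time 0, and the control cultures received the same medium with 0 nM insulin. Both had been differentiated in low serum and kept in serum-free medium before time 0, and no arm of the study retained serum. RNA was taken every 20 min for 8 hours and pooled by hour, so hour 1 holds the samples of 20, 40 and 60 min and hour 8 those of 440, 460 and 480 min. The course was repeated on different days with the same cell line, here letters a, b and c, and gave 26 arrays of insulin-treated and 27 of control cultures, with 3 per culture and hour except 2 for insulin at hour 3.

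Eif4e is the protein that holds the cap, Eif4g1 is the scaffold that joins it to the ribosome, and Eif4a1 and Eif4a2 are RNA helicases that unwind the leader of the message. Eif4g2 is a scaffold relative that lacks the binding site for Eif4e. The 4E-binding proteins Eif4ebp1 and Eif4ebp2 compete with the scaffold for Eif4e until the kinase mTORC1 phosphorylates them, and Pdcd4 blocks the helicase until the S6 kinase Rps6kb1 marks it for destruction. Mknk2 phosphorylates Eif4e on the scaffold. Insulin is known to act on this machinery in muscle within minutes through phosphorylation, which an RNA array does not measure.

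Stretches of 120 bases that lie just before the annotated start are shown for the members with the clearest opposite courses, 2 that were higher with insulin (Eif4e and Eif4a1) and 1 that was lower (Pdcd4). Promoter windows from RefSeq (build GRCr8) were matched for 8 of the 10 genes by symbol, and 1 annotated start per gene is used. None was matched for Eif4ebp1 and Mknk2. Capitals mark the E-box CACGTG and the CCAAT box, which reads ATTGG on the other strand.
Eif4e, chr2:229740633-229740752, plus strand: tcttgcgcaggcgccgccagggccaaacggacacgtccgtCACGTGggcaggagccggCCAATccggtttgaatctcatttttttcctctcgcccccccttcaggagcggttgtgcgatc
Eif4a1, chr10:54888603-54888722, minus strand: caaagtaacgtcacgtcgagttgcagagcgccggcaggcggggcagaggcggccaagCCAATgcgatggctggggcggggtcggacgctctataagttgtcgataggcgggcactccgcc
Pdcd4, chr1:262926575-262926694, plus strand: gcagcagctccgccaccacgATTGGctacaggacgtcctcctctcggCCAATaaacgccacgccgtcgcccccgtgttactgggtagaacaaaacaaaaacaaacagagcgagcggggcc
Whole windows ran from 250 bases before to 50 after the start and were searched on both strands. The E-box, a site bound by basic helix-loop-helix factors, was found in 2 of the 8 members matched (Eif4e and Eif4g1) and in 6.42% of all 33469 windows. The CCAAT box was found in 4 of the 8 (Eif4e, Eif4a1, Eif4g2 and Pdcd4) and in 37.5% of all windows. The forkhead motif TGTTTAC was in 0 of the 8 windows and in 3.78% of all. Of the 4 genes with a CCAAT box, Eif4e and Eif4a1 were higher with insulin, Pdcd4 was lower and Eif4g2 did not pass in the main fit below. Whether the box has a part in these courses was not tested.

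In the arrays themselves, 23 of 27 markers of differentiated myotubes passed the filter on low levels (a mean of at least 5 on the log2 scale), among them Myog, Myh3 and Acta1. Over hours 1 to 8, 0 of the 23 passed the test between the cultures and 3 of them were above 0, with a median difference of -0.10 against -0.0034 over all genes. All 12 markers of proliferating cells passed the filter, Mki67 at a mean level of 9.96 and Cdk1 at 10.16, and 0 of them passed the test over hours 1 to 8. At time 0 all 12 were above 0, with a median difference of 0.20. Myod1 and Myh7 lay below it. So did Ptprc, Adgre1 and Tyrobp of macrophages, Pecam1 of endothelial cells and Adipoq of adipocytes. Of these last 2 cell types 1 of 8 and 1 of 7 markers passed the filter, Esam at a mean level of 6.77 and Lpl at 9.87. Lpl had a late difference of -0.23 (adjusted p = 0.52). Macrophage markers passed in 6 of 9 cases, with 1 of them, Cd68, higher by 0.14 over hours 1 to 8 (adjusted p = 0.038). Cd68 had a mean level of 5.57 and was already apart by 0.17 at time 0, before insulin. Over hours 5 to 8 Cd68 did not pass the test (0.12, adjusted p = 0.28). The mean level of the macrophage markers lay between 5.99 and 6.32 on arrays of insulin-treated and between 5.89 and 6.30 on arrays of control cultures. Fibroblast markers passed in 8 of 8 cases, at mean levels between 9.98 and 10.52 in insulin-treated and between 10.09 and 10.60 in control cultures, and Pdgfra had a difference of -0.32 over hours 5 to 8 (adjusted p = 0.016). Their part in the results below was not tested. Letter b stood apart from the start: over all tested probe sets its insulin minus control difference at time 0, before insulin, correlated with its own mean difference of hours 1 to 5 at r = 0.77, against 0.025 for letter a and 0.15 for letter c.

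Averaged over hours 1 to 8, Pdcd4 and Mknk2 were lower in insulin-treated than in control cultures, and Eif4a1, Eif4e and Eif4ebp1 were higher. All differences are insulin minus control on the log2 scale. They were tested with limma over all 22143 probe sets, with Benjamini-Hochberg adjustment and a threshold of 0.05. This main fit had no term for the letter, so its p-values do not use the pairing of samples by day. It also treated the hourly arrays of 1 letter as independent, although they come from the same day. The p-values of windows of several hours can therefore be too small. Of the 10 genes 3 passed as higher and 2 as lower, and of all tested probe sets 5.47% and 6.55% did. Of all 11631 genes, each at its brightest probe set, 5.67% and 8.28% did. The median difference was 0.061 over the 10 genes, 0.0041 over all tested probe sets and -0.0034 over all genes. The remaining 5 genes had differences of 0.085 (Eif4a2), 0.099 (Rps6kb1), 0.037 (Eif4g2), -0.074 (Eif4g1) and -0.11 (Eif4ebp2). With the letter as a replicate block, 8 of the 10 genes passed, Eif4a2, Eif4g2 and Rps6kb1 in addition, and so did 5896 of all probe sets. With 1 mean per letter 1 gene did, Pdcd4, and Eif4e (adjusted p = 0.18), Eif4ebp1 (0.29), Eif4a1 (0.080) and Mknk2 (0.16) did not, nor did the genes added by the block. With the difference of time 0 subtracted, 0 genes and 0 probe sets passed over hours 1 to 8.

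The windows were then tested apart. Over hours 1 and 2, 0 of the 10 genes passed, and so did 0% of all probe sets, although 2096 had an unadjusted p under 0.05. At time 0, 0 genes passed and the share of all was 0% too, with 212 at an unadjusted p under 0.05. Over hours 5 to 8, 4 of the 10 genes passed (3 higher, 1 lower), against 9.26% of all probe sets, 3.98% higher and 5.27% lower. Of all genes, 4.66% were higher and 6.47% lower. The shift between the early window (hours 1 and 2) and the late window (hours 5 to 8), tested as such, passed for 3 genes, Eif4ebp1 and Eif4a1 upward and Pdcd4 downward. Of all probe sets 1.84% did, 0.930% upward and 0.908% downward, and of all genes 1.17% upward and 1.1% downward. For the other 7 of the 10 genes the shift did not pass, with 0.032 for Mknk2 (adjusted p = 0.98) and 0.14 for Eif4e (adjusted p = 0.23). In the F test over the 8 hourly differences 4 genes passed (Eif4e, Eif4ebp1, Eif4a1 and Pdcd4), against 2.40% of all.

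**Figure D1:**
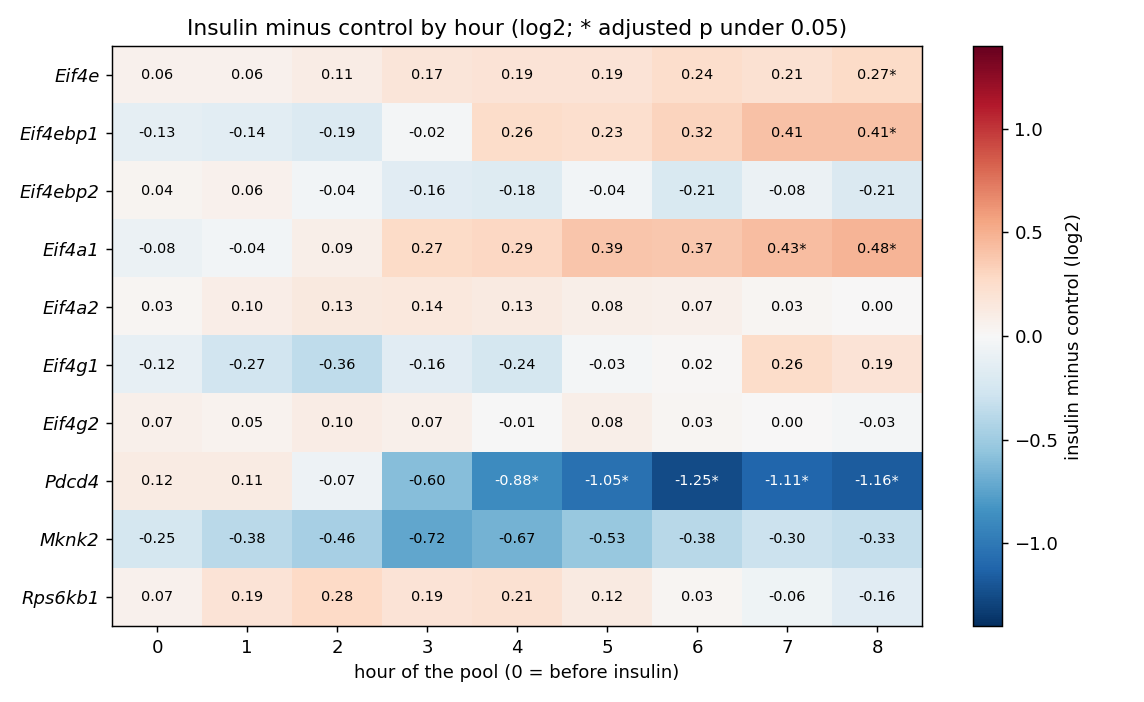
Insulin minus control difference (log2) of each of the 10 genes, rows, in each hourly pool, columns, with time 0 before insulin. Red is higher and blue lower in insulin-treated cultures, and an asterisk marks an adjusted p under 0.05. Pdcd4 carried the asterisk from hour 4 on, with -1.25 at hour 6, Eif4a1 at hours 7 (0.43) and 8 (0.48), and Eif4e (0.27) and Eif4ebp1 (0.41) at hour 8.

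Pdcd4, the inhibitor of the helicase, gave the widest separation. At time 0 its levels were 8.87, 8.52 and 8.54 in insulin-treated cultures (letters a, b and c) and 8.61, 8.53 and 8.44 in control cultures. At hour 4 they were 8.60, 8.41 and 8.25 with insulin and 9.28, 9.11 and 9.52 without it. At hour 8 they were 8.52, 8.58 and 8.53 with insulin and 9.92, 9.46 and 9.73 without it. The cultures overlapped at time 0, and from hour 3 on, where insulin has 2 arrays, every insulin-treated array lay below every control array of the same hour. At hour 3 the levels were 8.43 and 8.38 with insulin (letters b and c) and 9.33, 8.97 and 8.70 without it. Over hours 5 to 8 the 12 insulin-treated arrays ran from 8.20 over a median of 8.41 to 8.58, and the 12 control arrays from 9.20 over 9.52 to 9.92, with no overlap. Here and for the genes below, the share of all probe sets without such overlap was not counted. The 12 arrays of each culture came from 3 days. The difference was -1.14 (SE 0.078, adjusted p = 5.1e-13), a level 2.21-fold lower with insulin, and the letters gave -1.29, -0.95 and -1.19. In bulk RNA, fewer cells with the transcript and less transcript per cell cannot be told apart. Over hours 1 and 2 the difference was 0.020 (SE 0.11), and the change between the windows was -1.16 (SE 0.14, adjusted p = 3.7e-06), alike in the letters at -1.13, -1.16 and -1.19. Without letter b that change stayed at -1.16 and its adjusted p was 0.0502. Single hours passed from hour 4 (adjusted p = 0.0096) to hour 8 (adjusted p = 6.4e-05), against shares of all probe sets that were lower of 0.0497% at hour 4, 0.230% at hour 5, 0.280% at hour 6, 0.230% at hour 7 and 0.528% at hour 8.

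The separation of Pdcd4 came with a rise in control cultures. Its control mean was 8.53 ± 0.09 at time 0, 8.69 ± 0.34 at hour 2, 9.00 ± 0.31 at hour 3, 9.30 ± 0.21 at hour 4 and 9.70 ± 0.23 at hour 8 (SD, n = 3). The insulin mean was 8.64 ± 0.20 at time 0, 8.42 ± 0.18 at hour 4, 8.30 ± 0.11 at hour 6 and 8.54 ± 0.03 at hour 8 (SD, n = 3). Hours 5 to 8 minus time 0 came to -0.24 in insulin-treated cultures (SE 0.12, adjusted p = 0.51) and to 1.01 in control cultures (SE 0.12, adjusted p = 1.3e-06). With the difference of time 0 subtracted, hours 5 to 8 gave -1.26 (SE 0.17, adjusted p = 2.6e-04). Pdcd4 had 4 further probe sets. In the late window 3 of them gave -1.17, -1.17 and -1.14, close to the brightest, and the dimmest, at a mean level of 5.51, gave -0.34. All 4 passed over hours 5 to 8, and over hours 1 to 8 all but the dimmest did (-0.14, adjusted p = 0.095).

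**Figure D2:**
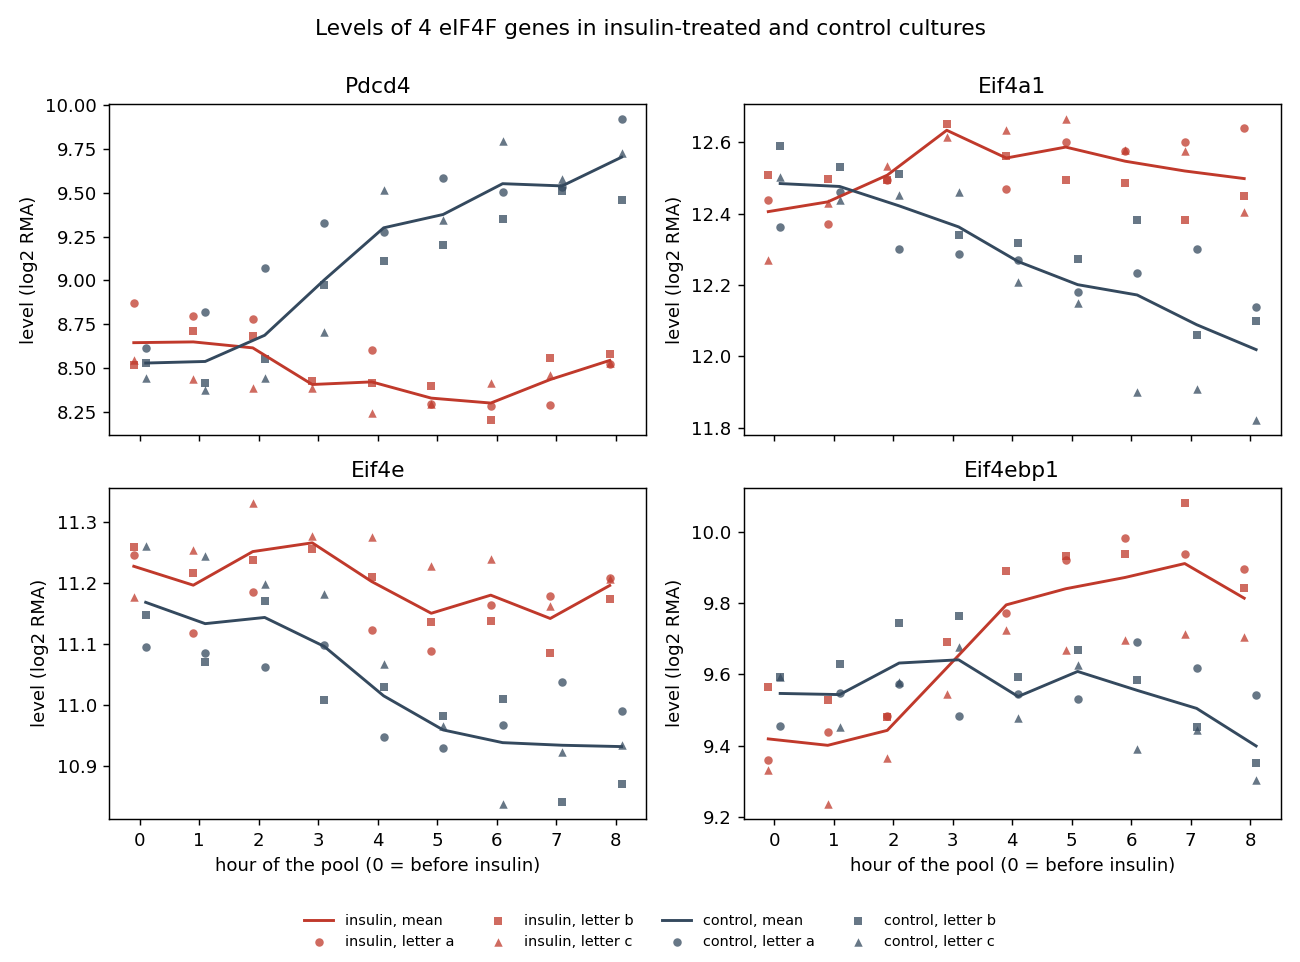
Levels (log2 RMA, vertical axis, a separate scale for each gene) of Pdcd4, Eif4a1, Eif4e and Eif4ebp1 by hour of the pool, red for insulin-treated and dark blue for control cultures. Lines join the means and each point is 1 array, its shape the letter. The control line of Pdcd4 climbed to 9.70 at hour 8 and those of Eif4a1 and Eif4e went down, while the insulin line of Eif4ebp1 climbed to 9.91 at hour 7.

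Of the helicases, Eif4a1 was higher with insulin and its paralog Eif4a2 did not pass at its brightest probe set. Eif4a1 stood at 12.44, 12.51 and 12.27 in insulin-treated and at 12.36, 12.59 and 12.50 in control cultures at time 0, and the cultures overlapped. At hour 8 it stood at 12.64, 12.45 and 12.41 with insulin and at 12.14, 12.10 and 11.82 without it, and they did not. During hours 5 to 8 the 12 arrays with insulin ran from 12.38 to 12.66 around a median of 12.57, and the 12 control arrays from 11.82 to 12.38 around 12.14. The lowest of the one set lay just above the highest of the other. The difference was 0.42 (SE 0.048, adjusted p = 5.5e-08), 1.34-fold, with 0.39, 0.25 and 0.61 in the letters, and over hours 1 to 8 it was 0.28 (SE 0.035, adjusted p = 1.9e-07). Hours 1 and 2 gave 0.021 (SE 0.068). The change between the windows was 0.40 (SE 0.083, adjusted p = 0.0074), but it no longer passed without letter b (0.46, adjusted p = 0.15) or without letter c (0.31, adjusted p = 0.16).

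The control cultures again carried most of the course of Eif4a1. Hours 5 to 8 minus time 0 came to 0.13 with insulin (SE 0.076, adjusted p = 0.61) and to -0.36 without it (SE 0.076, adjusted p = 0.0018), the second of which did not pass without letter b (adjusted p = 0.11) or letter c (adjusted p = 0.096). Relative to time 0 the late difference of Eif4a1 was 0.50 (SE 0.11, adjusted p = 0.033). It passed at single hours 7 (0.43, adjusted p = 0.034) and 8 (0.48, adjusted p = 0.0066), where 0.0361% and 0.185% of all probe sets were higher.

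Eif4a2 ran between 12.24 and 12.63 on the 23 insulin-treated arrays of hours 1 to 8 and between 12.20 and 12.63 on the 24 control arrays. Its difference was 0.085 (SE 0.039, adjusted p = 0.16), the letters gave -0.017, 0.15 and 0.12, and it passed without letter a (0.14, adjusted p = 0.031). A dimmer probe set of Eif4a2 behaved otherwise, with mean levels of 8.41 in insulin-treated and 8.02 in control cultures, a difference of 0.39 (adjusted p = 0.0033) and all letters above 0 at 0.55, 0.39 and 0.33. The probe sets of Eif4a2 therefore disagree in size. Eif4a1 and Eif4a2 are close in sequence, and how far their probe sets read each other's RNA was not tested.

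Eif4e, the cap-binding protein, was higher with insulin in all 23 pairs of hour and letter from hour 1 to hour 8, by a small margin. At time 0 its levels were 11.25, 11.26 and 11.18 in insulin-treated and 11.10, 11.15 and 11.26 in control cultures. At hour 8 they were 11.21, 11.17 and 11.21 in insulin-treated and 10.99, 10.87 and 10.93 in control cultures. The insulin-treated levels kept within a narrow band while the control levels went lower, and at hour 8 the cultures did not overlap. Late arrays with insulin, hours 5 to 8, ran from 11.08 to 11.24 (median 11.17) and the control arrays from 10.84 to 11.04 (median 10.95), again with no overlap. The difference was 0.23 (SE 0.033, adjusted p = 6.2e-06), 1.17-fold, with 0.18, 0.21 and 0.29 in the letters, and over hours 1 to 8 it was 0.18 (SE 0.024, adjusted p = 1.1e-06). With 1 mean per letter neither of these differences passed. The difference at time 0, before insulin, was 0.059 (SE 0.067, adjusted p above 0.99), above 0 in 2 of 3 letters, and relative to it the late difference was 0.17 (SE 0.075, adjusted p = 0.76).

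Within the cultures Eif4e came to -0.061 with insulin (SE 0.053, adjusted p = 0.83) and to -0.23 without it (SE 0.053, adjusted p = 0.0048) at hours 5 to 8 minus time 0. The control value did not pass without letter b (adjusted p = 0.18) or letter c (adjusted p = 0.20). The change of the difference from hours 1 and 2 to hours 5 to 8 did not pass (0.14, SE 0.058, adjusted p = 0.23), so an early and a late difference were not told apart. The single hour that passed was hour 8 (0.27, adjusted p = 0.045). Both dimmer probe sets of Eif4e, at mean levels of 6.48 and 6.35, did not pass over hours 1 to 8, with 0.16 (adjusted p = 0.069) and 0.024 (adjusted p = 0.76), and with the mean over the 3 the late difference was 0.13 (adjusted p = 0.055).

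Eif4ebp1, the binding protein that holds Eif4e off the scaffold, crossed over. Its levels at time 0 were 9.36, 9.56 and 9.33 in insulin-treated and 9.45, 9.59 and 9.59 in control cultures. At hour 2 they were 9.48, 9.48 and 9.36 with insulin and 9.57, 9.74 and 9.58 without it. At hour 8 they were 9.89, 9.84 and 9.70 with insulin and 9.54, 9.35 and 9.30 without it. Insulin-treated levels were the lower ones in 6 of 6 pairs of hours 1 and 2 and the higher ones in 12 of 12 pairs of hours 5 to 8, and before insulin they were already lower in 3 of 3 letters. The early difference was -0.17 (SE 0.073, adjusted p = 0.47) and the late one 0.34 (SE 0.051, adjusted p = 8.9e-06), 1.27-fold. The change between them was 0.51 (SE 0.089, adjusted p = 0.0010), with 0.44, 0.62 and 0.47 in the letters, and it did not pass without letter b (0.45, adjusted p = 0.16). The mean of hours 1 to 8, 0.16 (SE 0.037, adjusted p = 0.0030), joined both phases and did not pass without letter b (0.13, adjusted p = 0.18).

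Unlike the control-side courses of Pdcd4 and Eif4a1, the movement of Eif4ebp1 lay in the insulin-treated cultures. Hours 5 to 8 minus time 0 came to 0.44 with insulin (SE 0.081, adjusted p = 0.0017) and to -0.030 without it (SE 0.081, adjusted p = 0.91). The insulin value did not pass without letter a (0.37, adjusted p = 0.088) or letter b (0.47, adjusted p = 0.058). This was the 1 gene of the 10 that passed within insulin-treated cultures, where 0.510% of all probe sets were higher, whereas in control cultures 1 gene was higher and 2 were lower, against 3.61% and 2.80%. Relative to time 0 the late difference of Eif4ebp1 was 0.47 (SE 0.11, adjusted p = 0.077). It passed at hour 8 (0.41, adjusted p = 0.042).

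Eif4ebp2, the second binding protein, did not pass. Its arrays of hours 5 to 8 ran from 8.68 over a median of 9.00 to 9.25 with insulin and from 8.86 over 9.17 to 9.36 without it, and most of the ranges was shared. The difference was -0.14 (95% CI -0.30 to 0.030, adjusted p = 0.39), lower in 9 of 12 pairs. Letter c contributed -0.33 and letters a and b -0.047 and -0.023.

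**Figure D3:**
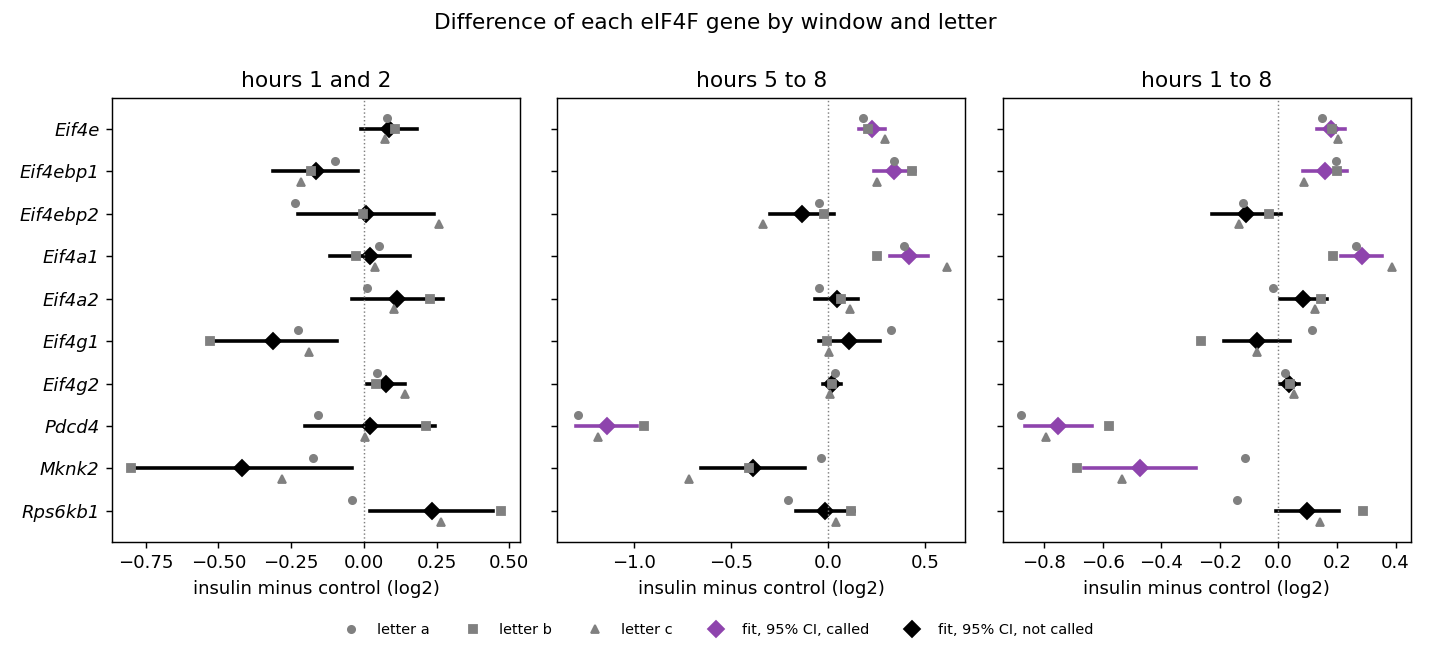
Insulin minus control difference (log2, horizontal axis, a separate scale for each panel) of the 10 genes over hours 1 and 2, hours 5 to 8 and hours 1 to 8. Diamonds and bars are the limma fit with its 95% confidence interval, purple where the gene passed, and grey symbols are the letters. The left panel has no purple symbol, and in the middle panel Pdcd4 lies at -1.14 and Eif4a1, Eif4ebp1 and Eif4e at 0.42, 0.34 and 0.23.

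The scaffolds did not pass in any of the windows. Eif4g1 was lower with insulin in 6 of 6 pairs of hours 1 and 2, where its arrays ran from 9.68 to 9.97 in insulin-treated and from 9.96 to 10.36 in control cultures, and the fit gave -0.31 (SE 0.11, adjusted p = 0.36). Late in the course the fit gave 0.11 (SE 0.078, adjusted p = 0.49), made up of 0.33 in letter a and -0.0041 and 0.0046 in letters b and c. The change of 0.42 (SE 0.13, adjusted p = 0.096) passed with the letter as a replicate block (0.42, adjusted p = 0.021) and did not with 1 mean per letter (adjusted p = 0.13). Over hours 1 to 8 Eif4g1 passed without letter a (-0.17, adjusted p = 0.025) and had the opposite sign without letter b (0.023). Its other 3 probe sets gave -0.029, -0.027 and 0.12 over hours 1 to 8, with adjusted p between 0.070 and 0.94.

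Eif4g2 was the steadiest of the 10. From hour 1 to hour 8 its level ran from 13.30 to 13.53 in insulin-treated and from 13.29 to 13.45 in control cultures. The difference was 0.037 over hours 1 to 8 (95% CI 0.0048 to 0.070, adjusted p = 0.13) and 0.021 over hours 5 to 8 (95% CI -0.025 to 0.067). The first passed with the letter as a replicate block (0.038, adjusted p = 0.039) and did not with 1 mean per letter (adjusted p = 0.58). At time 0 the difference was 0.075 (SE 0.045), and with it subtracted hours 1 to 8 gave -0.037. The 2 dimmer probe sets gave 0.033 and -0.041 over hours 1 to 8 and did not pass.

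Of the kinases, Mknk2 was lower with insulin in 21 of 23 pairs of hours 1 to 8. At time 0, before insulin, its levels were 8.07, 7.56 and 8.11 in insulin-treated and 8.07, 8.41 and 7.99 in control cultures, so letter b was already apart by -0.86. At hour 4 they were 8.40, 7.55 and 7.79 with insulin and 8.70, 8.85 and 8.19 without it. At hour 8 they were 8.68, 8.04 and 7.65 with insulin and 8.68, 8.25 and 8.43 without it. Letter a was level between the cultures by hour 8 and letter c was the farthest apart. The mean difference over hours 1 to 8 was -0.47 (SE 0.095, adjusted p = 6.0e-04), 1.39-fold lower, with -0.11, -0.69 and -0.53 in the letters. It did not pass without letter b (-0.37, adjusted p = 0.16), and relative to time 0 it was -0.23 (SE 0.28, adjusted p above 0.99). For hours 5 to 8 alone it was -0.39 (SE 0.13, adjusted p = 0.057), which passed with the letter as a replicate block (adjusted p = 0.0024) and did not with 1 mean per letter (adjusted p = 0.16).

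Rps6kb1, the S6 kinase, did not pass. Over hours 1 and 2 its arrays ran from 9.79 over a median of 9.84 to 10.02 in insulin-treated and from 9.41 over 9.53 to 9.97 in control cultures. The difference was 0.23 (SE 0.10, adjusted p = 0.48), with -0.041, 0.47 and 0.27 in the letters, and letter b had been apart by 0.38 at time 0. Over hours 5 to 8 it was -0.017 (95% CI -0.17 to 0.13). Without letter a Rps6kb1 passed over hours 1 and 2 (0.37, adjusted p = 0.046) and hours 1 to 8 (0.22, adjusted p = 0.0029). Its dimmer probe set gave 0.029 over hours 1 to 8 (adjusted p = 0.86).

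**Figure D4:**
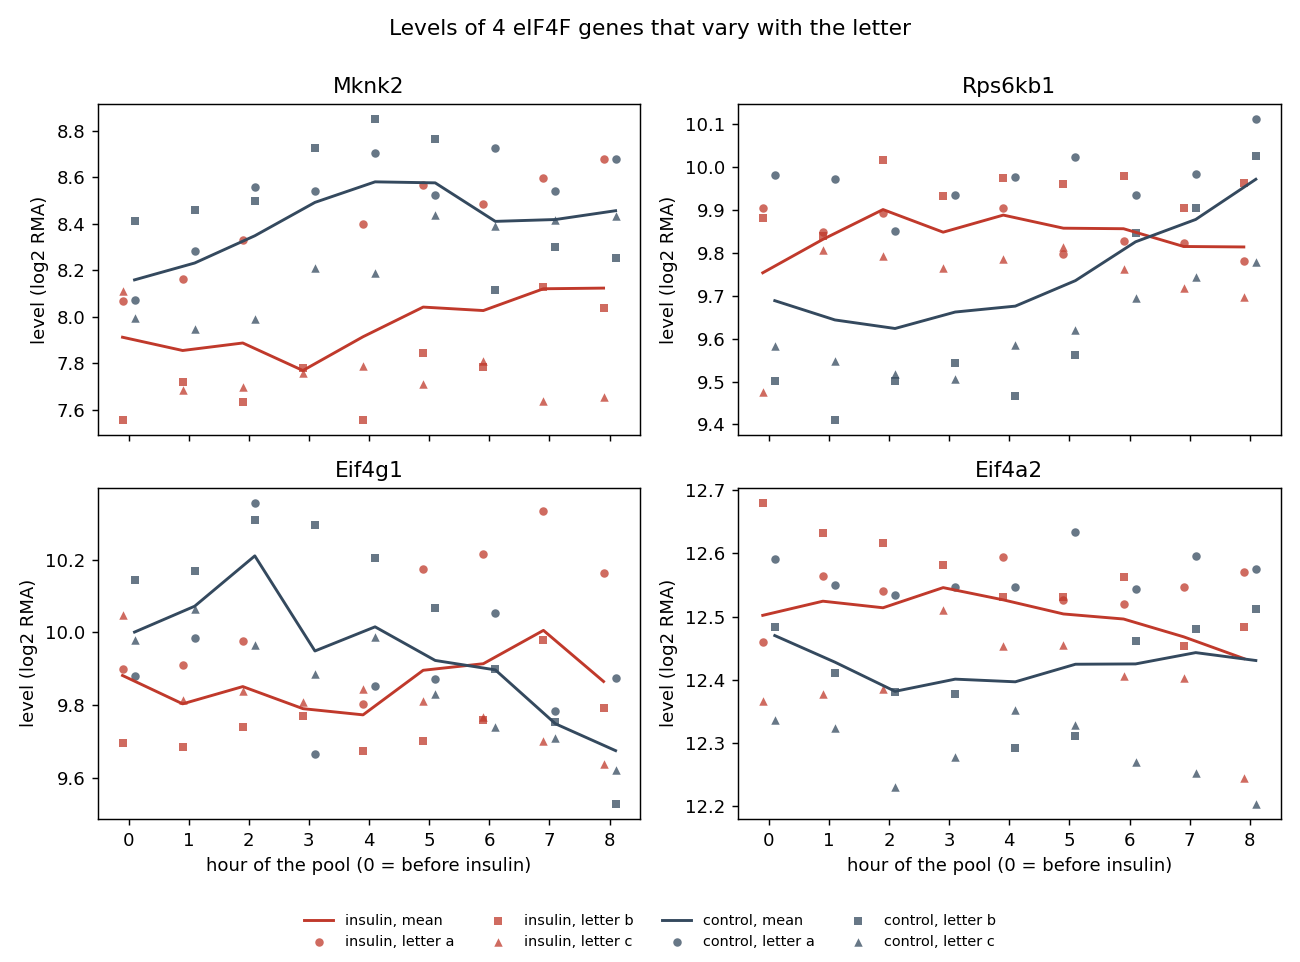
Levels (log2 RMA, vertical axis, a separate scale for each gene) of Mknk2, Rps6kb1, Eif4g1 and Eif4a2 by hour of the pool, red for insulin-treated and dark blue for control cultures, with lines for the means and 1 point per array shaped by letter. Squares, letter b, were already apart at time 0, for Mknk2 at 7.56 with insulin and 8.41 in control cultures.

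The hourly differences of several members varied together over the 23 pairs of hour and letter. As a description, with pairs that share days and hours, Eif4a1 followed Eif4e at r = 0.84 and ran opposite to Pdcd4 at r = -0.84, and Eif4ebp1 ran opposite to Pdcd4 at r = -0.83. Rps6kb1 followed Eif4a2 at r = 0.87 and ran opposite to Eif4g1 at r = -0.86, and Mknk2 ran opposite to Eif4a2 at r = -0.83. Weaker ties ran between these genes as well, with r = -0.65 for Eif4g1 and Pdcd4, 0.62 for Eif4g1 and Eif4ebp1 and 0.58 for Rps6kb1 and Pdcd4, and Eif4g2 ran opposite to Eif4ebp1 at r = -0.67. Rps6kb1, Eif4a2, Eif4g1 and Mknk2 had been apart in letter b before insulin, by 0.38, 0.20, -0.45 and -0.86 at time 0. That offset was not subtracted from the pairs.

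Among 11621 other genes, the hourly differences most like those of Pdcd4 were those of Tcp11l2 (r = 0.95), Klhl24 (r = 0.95) and Atosa (r = 0.94), whose differences over hours 5 to 8 were -1.34, -1.43 and -1.19. For Eif4a1 they were Drg1 (r = 0.94), Sdhaf1 (r = 0.90) and Gpn1 (r = 0.90), and for Eif4e Tdg (r = 0.83), Exosc4 (r = 0.83) and again Gpn1 (r = 0.82). Eif4ebp1 was matched by Nr2c2ap (r = 0.93), Yars1 (r = 0.90), the tyrosyl-tRNA synthetase of the cytosol, and Anp32b (r = 0.90). Yars1 was higher by 0.62 over hours 5 to 8 (adjusted p = 1.8e-07). The genes most like Mknk2, namely Pbxip1 (r = 0.95), Ube2r2 (r = 0.94) and Dmpk (r = 0.94), did not pass over hours 5 to 8. Mknk2 itself did not pass there either (adjusted p = 0.057). Its letter b offset of -0.86 at time 0 was not subtracted from these pairs.

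Around the complex, a list of 32 other genes that bind or regulate the cap machinery was read in the same way. Of the 27 tested, 2 were higher and 2 lower over hours 5 to 8, where 4.66% of all genes were higher and 6.47% lower. Counts this small do not set the list apart from those shares. Paip2, which keeps the poly(A)-binding protein away from the scaffold, had a difference of -0.58 (SE 0.067, adjusted p = 5.2e-08). Eif4e3, a relative of Eif4e, had one of -0.28 (adjusted p = 0.017). The phosphatase Ppm1g, which acts on Eif4ebp1 in human cells, was higher by 0.31 (adjusted p = 0.0063) and the kinase Rps6ka2 by 0.18 (adjusted p = 0.036). Rps6ka2 lay near the filter, at a mean level of 5.66. Over hours 1 to 8 Eif4e3, Ppm1g and Rps6ka2 did not pass (adjusted p = 0.068, 0.59 and 0.37). The phosphatase subunit Ppp2r5a was lower over hours 1 to 8, at -0.12 (adjusted p = 0.032).

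Of the other initiation factors, 30 of 35 were tested, and 8 were higher and 1 lower over hours 1 to 8, where 5.67% of all genes were higher and 8.28% lower. The median difference of the list was 0.054, and -0.0034 over all genes. At time 0, before insulin, the median of the list was already 0.039, and 0.0094 over all genes. Of the 30 genes, 21 were above 0 at time 0 and 22 over hours 1 to 8. The initiator tRNA carrier subunit Eif2s2 was higher by 0.22 over hours 5 to 8 (adjusted p = 3.5e-04), and Eif2b3, a subunit of its exchange factor, by 0.25 (adjusted p = 0.027). Denr, a reinitiation factor, was higher by 0.21 (adjusted p = 0.037), and Eif6, which keeps ribosomal subunits apart, by 0.21 (adjusted p = 0.052), having passed over hours 1 to 8 (0.16, adjusted p = 0.033). Eif3f, a subunit of the factor that docks on the scaffold, had a late difference of -0.20 (adjusted p = 0.0041) and was the 1 gene of the list that was lower. At time 0 the differences were 0.15 (SE 0.083) for Eif2s2, 0.096 for Eif2b3, 0.099 for Denr, -0.066 for Eif6 and -0.0033 for Eif3f.

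Of the upstream kinases and their regulators, 19 of 21 were tested, and 1 was higher and 2 were lower over hours 5 to 8, where 4.66% of all genes were higher and 6.47% lower. Of the sestrins, which hold mTORC1 back when amino acids are short, Sesn1 had a difference of -0.82 (SE 0.11, adjusted p = 1.8e-06), Sesn2 one of 0.49 (SE 0.13, adjusted p = 0.0073) and Sesn3 one of -0.036 (adjusted p = 0.86). Tsc1, part of the complex that restrains mTORC1, had a difference of -0.32 (adjusted p = 0.023). Pdpk1, the kinase that activates Akt and S6 kinase, was higher by 0.17 over hours 1 to 8 (adjusted p = 0.025). Over hours 5 to 8 Pdpk1 did not pass (0.041, adjusted p = 0.83), and at time 0, before insulin, its difference was 0.10 (SE 0.14).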

How the data were processed

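RNA of insulin-treated and control L6 cultures was hybridised to Affymetrix Rat 230 2.0 arrays. The values used are log2 levels per probe set as the authors made them, by background subtraction, quantile normalization and RMA summary. Versions are not given in the sources used here. The number of arrays limits the precision. An array that failed quality control (insulin, hour 3, letter a) was left out by the authors. Array medians lay between 6.30 and 6.37.

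Probe sets with a mean of at least 5, the manufacturer's controls excluded, were tested, 22143 in all. The study filtered on detection calls, which were not used here. In R 4.3.3, limma 3.58.1 estimated 1 mean per culture and hour (eBayes with trend, two-sided tests, Benjamini-Hochberg over all tested probe sets). The script was tested on simulated data with independent noise in every array and no effect of the letter, so that test does not cover the pairing. The letters pair the samples: each marks a separate day, and deviations from group means of the same letter and hour correlated at 0.21 to 0.79 in all 26 pairs. The main fit has no term for the letter, so its p-values do not use this pairing, and 3 repeats of the course stand behind them. Arrays of the same letter at different hours are treated as independent, so p-values of windows of several hours can be too small.

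The 10 genes and the gene lists were chosen with earlier results of these data known. All 10 are named, with up to 5 genes per list (those that passed over hours 1 to 8 or 5 to 8, by size over hours 5 to 8) and the 3 genes most alike (Pearson's r of hourly differences). Alternatives were no filter, the replicate block, leaving out each letter or letter b at hours 0 to 5, 1 mean per letter, no variance trend, arrays centred on the median or the 75th percentile, time 0 subtracted, and the mean over a gene's probe sets. Symbols came from the platform annotation.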

Additional observations from a re-analysis of the deposited data

Results flagged for a closer look

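In 3 genes the insulin minus control difference of hours 5 to 8 departed from that of hours 1 and 2 in a test of the difference itself (limma, log2 scale). The change was -1.16 for Pdcd4 (adjusted p = 3.7e-06), 0.51 for Eif4ebp1 (adjusted p = 0.0010) and 0.40 for Eif4a1 (adjusted p = 0.0074). Each had the same sign in 3 of 3 letters. The call was kept under 10 of 11 alternatives for Pdcd4, lost without letter b (adjusted p = 0.0502), under 8 for Eif4ebp1 and under 7 for Eif4a1. No group held 4 or more arrays, so single arrays were not screened as outliers.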

How the results depend on the processing

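Of the genes that passed over hours 5 to 8, Pdcd4 and Eif4a1 did so under all 12 alternatives, Eif4ebp1 under 10 and Eif4e under 9. Over hours 1 to 8 Pdcd4 passed under 11 of 12, Eif4e and Eif4a1 under 10, Eif4ebp1 under 9 and Mknk2 under 8. For the change between hours 1 and 2 and hours 5 to 8 Pdcd4 passed under 10 of 11, Eif4ebp1 under 8 and Eif4a1 under 7, all of which failed without letter b. The F test and the single hours were not rerun. The causes of the changes below were not tested, and the number of arrays limits what could be detected.

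With the letter as a replicate block, 8 of the 10 genes and 5896 probe sets passed over hours 1 to 8. The block also raised the probe sets to 317 over hours 1 and 2, 4794 over hours 5 to 8, 2629 for the change between these windows, 1881 for the late course of insulin-treated cultures and 4253 for that of control cultures. Among the 10 genes it added Eif4a2, Eif4g2 and Rps6kb1 over hours 1 to 8, Mknk2 over hours 5 to 8 and Eif4g1 for the change, and it changed no other call. With 1 mean per letter, 1 gene (Pdcd4) and 154 probe sets passed over hours 1 to 8, 2 genes (Pdcd4 and Eif4a1) and 649 probe sets over hours 5 to 8, 1 gene and 12 probe sets for the change, and 0 genes and 86 probe sets for the course of insulin-treated cultures. With time 0 subtracted, 0 genes and 0 probe sets passed over hours 1 to 8 and 2 genes and 40 probe sets over hours 5 to 8. This turned the sign of Eif4g1 (0.045) and Eif4g2 (-0.037) over hours 1 to 8 and of Eif4g2 over hours 5 to 8 (-0.054). The mean over all probe sets of a gene turned the sign of 2 values, among them Eif4g2 over hours 5 to 8 (-0.021).

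Without letter b at hours 0 to 5, 1008 probe sets passed over hours 1 to 8. That left 1 gene and 18 probe sets for the change, 109 probe sets for the course of insulin-treated cultures, and 1 gene and 404 probe sets for that of control cultures. It turned the sign of 9 values of the 10 genes over all comparisons, among them Eif4g1 over hours 1 to 8 (0.016) and Pdcd4 over hours 1 and 2 (-0.077).

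Leaving out 1 letter at a time gave 3 to 8 genes and 675 to 4189 probe sets over hours 1 to 8. It gave 0 to 1 genes and 0 to 429 probe sets over hours 1 and 2, and 988 to 1632 probe sets over hours 5 to 8. For the change it gave 0 to 3 genes and 1 to 508 probe sets. For the late course of insulin-treated cultures it gave 0 to 1 genes and 62 to 324 probe sets, and for that of control cultures 1 to 3 genes and 230 to 1900 probe sets. The values of Eif4g1 ran from -0.17 to 0.023 and those of Rps6kb1 from -0.00038 to 0.22 over hours 1 to 8. Those of Pdcd4 ran from -0.077 to 0.11 over hours 1 and 2, those of Rps6kb1 from -0.084 to 0.078 over hours 5 to 8, and those of Eif4ebp1 in the course of control cultures from -0.12 to 0.031.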
